A study of Mus musculus with 56 samples.

Results

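The genes described here are the ligands and receptors of axon guidance: netrins, Dcc and the Unc5 receptors, Slits and Robo receptors, ephrins and Eph receptors, and semaphorins with plexins and neuropilins. They were taken by gene symbol, each gene through its brightest probe set annotated to 1 symbol, which gave 71 of the 18182 genes so annotated on the array. The rule also took in 3 genes that are no guidance gene by role, namely Plxna4os1 (a transcript of the strand opposite a plexin gene), Unc50 and Unc5cl. Each gene was measured in nucleus accumbens (27 arrays) and prefrontal cortex (29 arrays) of inbred mice. Each array held RNA of 1 strain, pooled from 3 males of 8 to 10 weeks. The accumbens was a punch beside the anterior commissure and the cortex a wedge of the slice in front of it, so both are mixtures of cell types. The 27 strains with both regions were WSB/EiJ, SWR/J, SM/J, SJL/J, RIIIS/J, PL/J, P/J, NZW/LacJ, NON/LtJ, NOD/LtJ, MA/MyJ, KK/HlJ, I/LnJ, FVB/NJ, DBA/2J, CE/J, CBA/J, C58/J, C57BR/cdJ, C57BL/6J, C3H/HeJ, BUB/BnJ, BTBR T+ tf/J, BALB/cByJ, AKR/J, A/J and 129S1/SvImJ. MRL/MpJ and NZO/HILtJ had cortex only, and both arrays lay within the range of the 27 paired cortex arrays for 38 of 44 tested members.

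Guidance cues steer growing axons: a growth cone that meets a netrin, Slit, ephrin or semaphorin turns towards or away from it according to the receptors it carries. Netrin acts through Dcc and the Unc5 receptors, Slits through Robo receptors, ephrins through Eph receptor tyrosine kinases, and semaphorins through plexins, often with a neuropilin as co-receptor. In the adult forebrain many of these genes stay on in neurons and glia, where they act at synapses.

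Levels are log2 array intensities, and a level of one gene cannot be set against that of another. To enter the tests, a probe set had to exceed log2 5 in 13 or more of the 54 paired arrays. By that filter 44 members were tested and 27 were not. The test was limma with strain as a block, and adjusted p-values (Benjamini-Hochberg, threshold 0.05) were taken over all 10684 features. Differences are accumbens minus cortex, so a positive one is higher in the accumbens, and n is 27 strains throughout. A fold against a region whose mean was below log2 5 is given as a lower bound against that level. With 1 pool per strain and region, p-values of the region and strain tests are set against the variation of the region difference between strains. Those of the last comparison, made on strain means over both regions, are set against the spread between strains.

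Guidance genes of every family were expressed at different levels in the 2 regions. Ntn1, Robo1, Efnb3 and Dcc were more than 1 log2 unit higher in accumbens, and Sema7a, Ephb6, Efna5, Plxna1, Unc5a, Slit2 and Sema3c more than 1 log2 unit lower. Robo3, Ephb3 and Sema3a were also lower, but their accumbens means lay below log2 5, so that only a smaller bound can be given for each. Of the 44 tested members, 21 were higher in accumbens (51.0% of all features were) and 16 were lower (32.9% of all features). Both counts were near the shares over all features. The other 7, Epha7, Efna3, Sema3f, Sema4a, Plxnd1, Ntn4 and Robo2, did not pass the threshold. With each array centred on its median the split was 17 higher (42.7% of all features) and 20 lower (39.8%). Over all features the median difference was 0.12, and over the tested members it was 0.14. The members' median absolute difference was 0.66, against 0.38 over all features. A fitted difference of at least 1 log2 unit, dim values included, was found for 4 members in the higher direction (8.29% of all features) and for 10 in the lower direction (7.09% of all features). The arrays of the regions did not overlap at all for 8 members, of which 3 were higher in accumbens (6.12% of all features were higher with no overlap) and 5 lower (5.25%). The counts at 1 log2 unit and without overlap include Ntn1, Robo3 and Ephb3. These passed the filter only through the region where they were higher, so their direction was close to fixed. Sema3a, in the count at 1 log2 unit, would not have passed by its accumbens arrays alone, so the filter favoured its lower call.

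**Figure D1:**
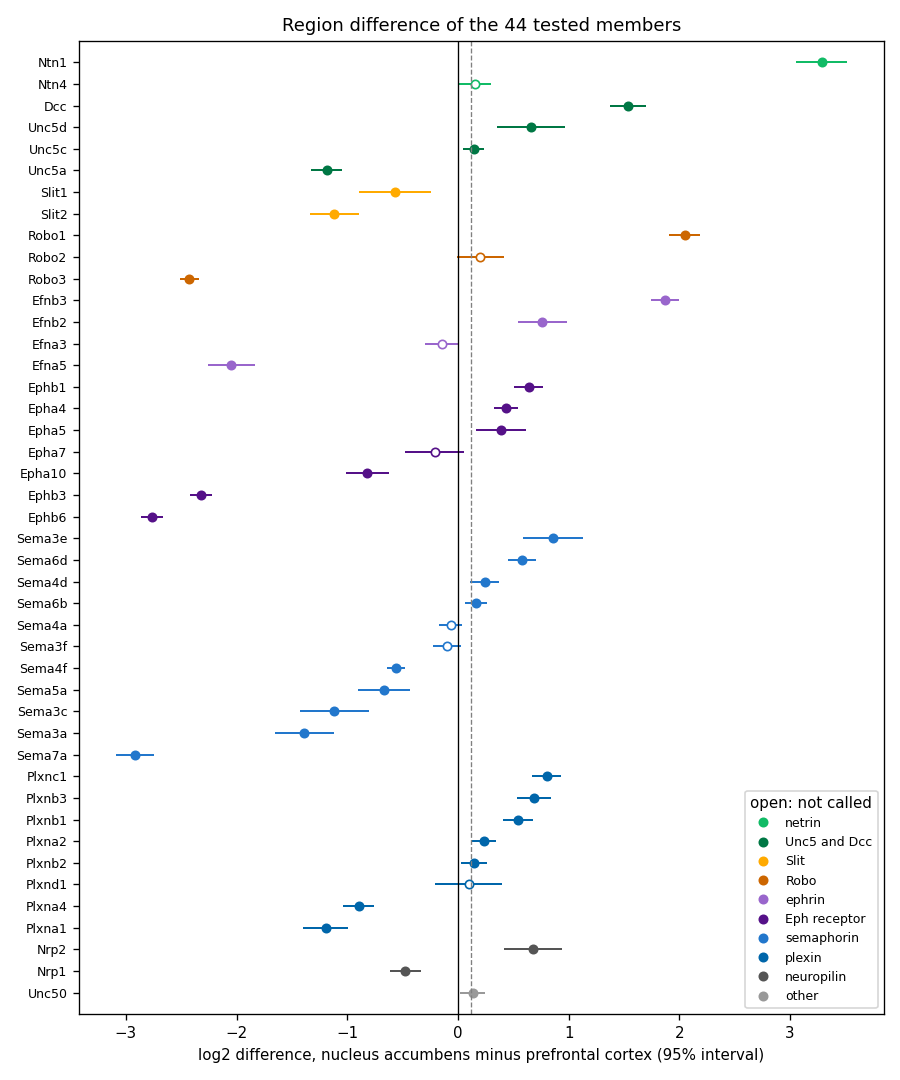
Log2 difference, nucleus accumbens minus prefrontal cortex (horizontal axis), of the 44 tested members in rows grouped by family, with 95% intervals as bars. Filled points passed the threshold, open points did not, and the dashed line is the median of all features (0.12): Ntn1 lies farthest right at 3.29 and Sema7a farthest left at -2.92.

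The dissected regions were checked against marker genes. All 14 tested markers of spiny neurons, the main cells of the striatum, were higher in accumbens, with a median difference of 4.69. Of 13 tested markers of cortical excitatory neurons 10 were lower and 3 higher (median -2.80). The mean level of the spiny list was 7.31 to 10.4 in accumbens arrays, where the BALB/cByJ array was lowest, against 5.34 to 9.13 in cortex arrays, where the MA/MyJ array was highest. Spiny minus cortical list level was 2.20 to 5.28 in accumbens arrays and -2.65 to 1.53 in cortex arrays, with the same arrays at the near ends. All 11 tested oligodendrocyte markers were also higher in accumbens (median 1.25), with list levels of 7.68 to 10.1 in accumbens arrays against 6.92 to 9.14 in cortex arrays. Of the other lists, oligodendrocyte precursor markers had 4 of 4 higher, astrocyte markers 3 higher and 5 lower of 10, microglia markers 5 and 1 of 8, endothelial and mural markers 2 and 7 of 9, interneuron markers 4 and 4 of 9, meningeal and choroid plexus markers 2 and 4 of 6, and septal and olfactory markers 1 and 2 of 5. In bulk tissue, fewer cells of a type and less RNA per cell cannot be told apart. Apart from a fit with the oligodendrocyte list as a covariate, given below, the part of these lists in the members' differences was not tested. Over all features, 24 of the 27 cortex arrays matched best the accumbens array of their own strain. The arrays labelled C57BR/cdJ stood apart even over the features called strain-dependent, which were chosen on these same arrays, with a correlation of 0.26 to each other, against 0.33 for the accumbens array with C3H/HeJ cortex and 0.68 for the cortex array with BTBR T+ tf/J accumbens. Without C57BR/cdJ, MA/MyJ and BALB/cByJ, a choice made after seeing the data, 21 members were higher and 16 lower, with no share over all features given. Some fits below leave out MA/MyJ, BALB/cByJ, CE/J, NON/LtJ and WSB/EiJ, strains that also stood out in these same arrays. MA/MyJ had the highest spiny list level of the cortex arrays, and the others the lowest of the accumbens arrays (7.31 to 9.42).

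Netrin-1 and its receptor Dcc were both higher in accumbens. Ntn1, which encodes the secreted cue netrin-1, had log2 intensities of 5.72, 7.15 and 7.59 in accumbens arrays, against 3.30, 3.73 and 4.63 in cortex arrays (here and below the lowest, the median and the highest array). Every accumbens array was above every cortex array, and all cortex arrays were below log2 5. Ntn1 was at least 4.07-fold higher in accumbens (log2 difference 3.29, SE 0.11, adjusted p = 1.1e-21). It passed the filter only through accumbens, so a higher call was close to fixed and the p-value is no separate support. Dcc, the receptor through which netrin-1 attracts axons, had 7.03, 7.48 and 7.82 in accumbens arrays, against 5.31, 5.91 and 7.33 in cortex arrays. Accumbens arrays were higher in each of the 27 strains, but the MA/MyJ cortex array reached into the accumbens range, whose lowest array was BALB/cByJ. Dcc was 2.91-fold higher (log2 difference 1.54, SE 0.08, adjusted p = 2.8e-17), and without C57BR/cdJ, MA/MyJ and BALB/cByJ its regions did not overlap. A second kept probe set of Dcc had a difference of 2.60 (SE 0.07, adjusted p = 8.3e-24).

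The Unc5 genes, whose products turn the response to netrin into repulsion, moved in both directions: Unc5d and Unc5c were higher (Unc5c lost its call with centred arrays) and Unc5a was lower. Unc5a had 4.51, 5.06 and 5.75 in accumbens arrays, against 5.76, 6.20 and 6.65 in cortex arrays, so that the highest accumbens array stayed narrowly below the lowest cortex array. It was 2.27-fold lower in accumbens (log2 difference -1.19, SE 0.07, adjusted p = 4.9e-16). Unc5d, also a receptor for FLRT proteins, was higher in 21 of 27 strains, with 5.23, 5.88 and 7.93 in accumbens arrays, against 4.93, 5.41 and 5.98 in cortex arrays (log2 difference 0.66, SE 0.15, adjusted p = 1.8e-04). Its highest accumbens arrays were BALB/cByJ, NON/LtJ and CE/J, and without MA/MyJ, BALB/cByJ, CE/J, NON/LtJ and WSB/EiJ its difference was 0.37. Unc5c was higher by 0.14 (SE 0.05) with adjusted p = 0.00505, and with centred arrays adjusted p was 0.368. Neither Unc5c (adjusted p = 0.186) nor Unc5d (adjusted p = 0.0801) passed with the oligodendrocyte covariate. Ntn4, a netrin of basement membranes, had 5.20, 5.61 and 7.15 in accumbens arrays, against 4.99, 5.62 and 6.32 in cortex arrays, and did not pass (log2 difference 0.15, SE 0.07, adjusted p = 0.0641).

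**Figure D2:**
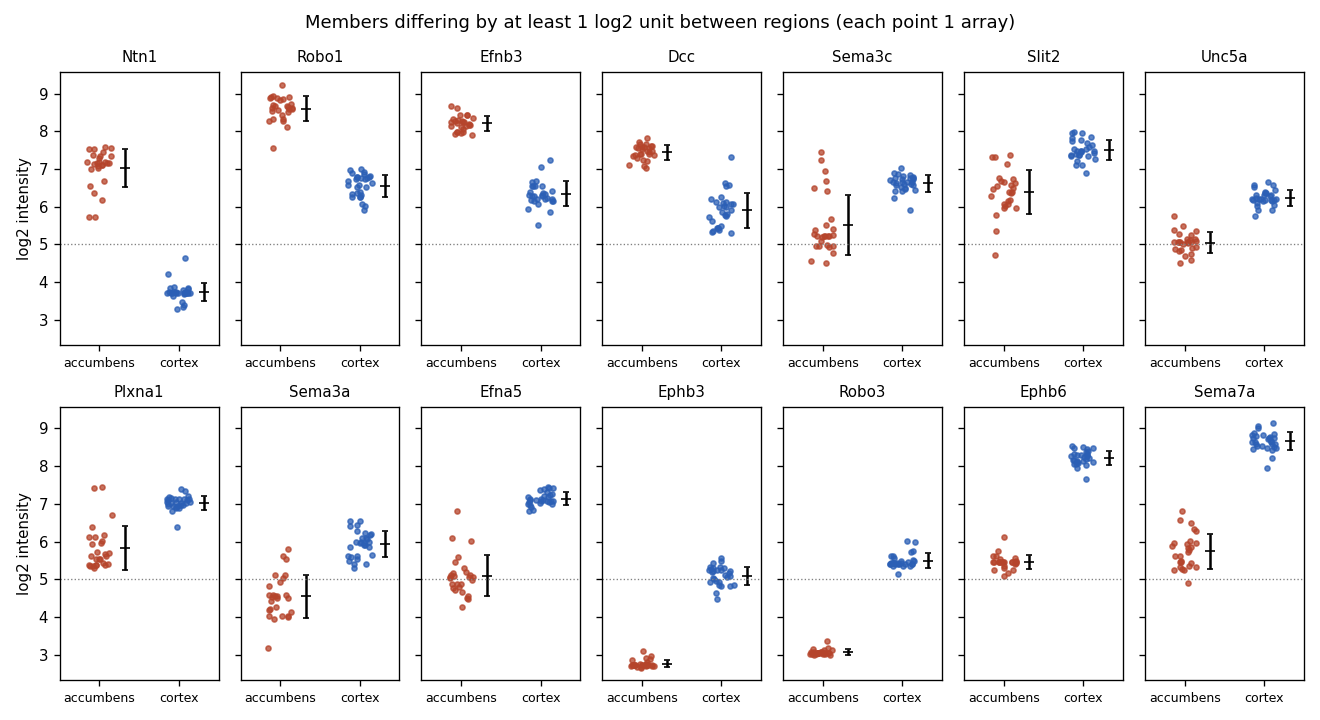
Log2 intensity (vertical axis) of the 14 members that differed by at least 1 log2 unit, with 1 point per array for the 27 paired strains, accumbens left of cortex; bars are mean ± SD and the dotted line is log2 5. Ntn1, Robo1 and Efnb3 separate fully upwards, Ephb3, Ephb6, Robo3, Sema7a and Unc5a fully downwards, and a single array bridges the gap for Dcc (MA/MyJ, cortex) and for Efna5 (BALB/cByJ, accumbens).

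Slit1 and Slit2, the Slit ligands tested, were lower in accumbens. Of the Robo family, Robo1 was higher, Robo3 lower and Robo2 not called. Slit2, a secreted repellent, had 4.73, 6.40 and 7.38 in accumbens arrays, against 6.90, 7.47 and 7.99 in cortex arrays. Accumbens was lower in 26 of 27 strains with some overlap, and Slit2 was 2.17-fold lower (log2 difference -1.12, SE 0.11, adjusted p = 8.0e-11). Slit1, a related ligand, had 3.74, 4.55 and 7.17 in accumbens arrays, against 4.998, 5.42 and 5.98 in cortex arrays. Most accumbens arrays lay below the cortex range, while those of BALB/cByJ, CE/J, NON/LtJ and WSB/EiJ lay above it, and the difference was -0.57 (SE 0.16) with adjusted p = 0.00155. The accumbens arrays of Slit1 alone would not have met the filter, so a lower call was favoured and the p-value is no separate support. Without MA/MyJ, BALB/cByJ, CE/J, NON/LtJ and WSB/EiJ the difference of Slit1 was -0.89. With values under log2 5 raised to it (adjusted p = 0.231) or the oligodendrocyte covariate (adjusted p = 0.259), Slit1 did not pass.

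Robo1, a Slit receptor, had 7.55, 8.63 and 9.23 in accumbens arrays, against 5.91, 6.59 and 6.997 in cortex arrays. All accumbens arrays were above all cortex arrays, and the lowest of them was BALB/cByJ. Robo1 was 4.14-fold higher in accumbens (log2 difference 2.05, SE 0.07, adjusted p = 3.8e-22). Robo3, a divergent Robo receptor known from axons that cross the midline, went the other way, with 2.996, 3.05 and 3.36 in accumbens arrays, against 5.14, 5.43 and 6.02 in cortex arrays. Its accumbens arrays were all below log2 5 and its cortex arrays all above it. Robo3 was at least 1.41-fold lower (log2 difference -2.43, SE 0.04, adjusted p = 6.1e-29). It passed the filter only through cortex, so a lower call was close to fixed and the p-value is no separate support. Robo2, the remaining Robo receptor tested, had 4.28, 5.50 and 6.15 in accumbens arrays, against 4.78, 5.15 and 5.92 in cortex arrays, and did not pass (log2 difference 0.20, SE 0.10, adjusted p = 0.0699). It passed without any 1 of BALB/cByJ, I/LnJ, MA/MyJ, NON/LtJ and WSB/EiJ, with adjusted p of 0.0264, 0.0344, 0.0305, 0.0320 and 0.0225. Without MA/MyJ, BALB/cByJ, CE/J, NON/LtJ and WSB/EiJ together its difference was 0.41 (adjusted p = 3.3e-05). These strains include those of its lowest accumbens array (WSB/EiJ) and its highest cortex array (MA/MyJ). That fit therefore gives no separate support for a call of Robo2.

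The stretches of 250 bases before the RefSeq starts of Robo1 and Robo3 are shown because these receptors of one family differed in opposite directions. They are followed by those of Sema7a and Ephb6, the members with the largest negative differences. Sequences are from RefSeq on GRCm38.p6, written 5′ to 3′ on the gene's strand, and capitals mark GGGCGG or its reverse complement CCGCCC, the core of a GC box. Robo1 lies at chr16:72662899-72663148 (plus strand), Robo3 at chr9:37433176-37433425 (minus strand), Sema7a at chr9:57939862-57940111 (plus strand) and Ephb6 at chr6:41605261-41605510 (plus strand).
Robo1: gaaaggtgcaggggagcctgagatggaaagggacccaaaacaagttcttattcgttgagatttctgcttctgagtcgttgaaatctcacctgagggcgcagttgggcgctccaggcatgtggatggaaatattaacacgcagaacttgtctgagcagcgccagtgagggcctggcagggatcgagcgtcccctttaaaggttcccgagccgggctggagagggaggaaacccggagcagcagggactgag
Robo3: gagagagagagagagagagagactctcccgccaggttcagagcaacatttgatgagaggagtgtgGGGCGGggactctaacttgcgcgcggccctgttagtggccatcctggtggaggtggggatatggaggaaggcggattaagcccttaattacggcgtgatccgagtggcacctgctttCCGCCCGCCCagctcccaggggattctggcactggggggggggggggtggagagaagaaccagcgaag
Sema7a: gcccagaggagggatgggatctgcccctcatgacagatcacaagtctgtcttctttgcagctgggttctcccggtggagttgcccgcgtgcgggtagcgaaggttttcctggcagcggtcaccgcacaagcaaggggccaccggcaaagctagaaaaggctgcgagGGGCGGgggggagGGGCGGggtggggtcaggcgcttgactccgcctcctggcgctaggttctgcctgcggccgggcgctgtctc
Ephb6: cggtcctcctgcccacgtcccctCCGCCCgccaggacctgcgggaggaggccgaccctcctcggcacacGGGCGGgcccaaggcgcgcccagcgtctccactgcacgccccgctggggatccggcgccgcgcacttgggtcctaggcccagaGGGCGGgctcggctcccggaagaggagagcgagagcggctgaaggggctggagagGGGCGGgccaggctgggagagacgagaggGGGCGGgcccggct
The motif occurred 0 times before Robo1, 3 times before Robo3 (2 of them overlapping), 2 times before Sema7a and 5 times before Ephb6. The stretch before Robo1 was 56.0% G and C, against 61.2% for Robo3, 66.4% for Sema7a and 76.8% for Ephb6. RefSeq starts were matched for 60 of 71 members, with 76 promoters. Of these, 55 held GGGCGG on either strand in the same window (72.4%), against 32.7% of all 32851 promoters, which include those of noncoding genes. TATAAA was found in 2 of the 76 (2.63%, against 12.4% of all), CAGATG in 5 (6.58%, against 14.4%) and TGACGTCA in 1 (1.32%, against 1.55%), both strands searched. The median share of G and C was 64.4% in the members' promoters, against 52.4% in all.

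Of the ephrins of the B type, which span the membrane, Efnb2 and Efnb3 were higher in accumbens, and Efnb1 was too dim to test. Of the tested ephrins of the A type, which sit on a lipid anchor, Efna5 was lower and Efna3 did not pass, except with centred or again quantile-normalized arrays, where it was lower. Efnb3 had 7.91, 8.21 and 8.67 in accumbens arrays, against 5.51, 6.29 and 7.24 in cortex arrays, with every accumbens array above every cortex array. It was 3.66-fold higher (log2 difference 1.87, SE 0.06, adjusted p = 9.8e-22). Efnb2 had 6.54, 8.93 and 9.23 in accumbens arrays, against 7.70, 8.03 and 8.33 in cortex arrays, and the BALB/cByJ accumbens array alone fell below the whole cortex range. Its difference was 0.76 (SE 0.11), higher in 26 of 27 strains, with adjusted p = 1.5e-07. Efna5 had 4.27, 5.05 and 6.80 in accumbens arrays, against 6.80, 7.11 and 7.45 in cortex arrays. All 27 strains were lower in accumbens, and the highest accumbens array, BALB/cByJ, only just reached the lowest cortex array, C57BR/cdJ. Efna5 was 4.13-fold lower (log2 difference -2.05, SE 0.11, adjusted p = 2.5e-17). Efna3 had 7.14, 7.89 and 8.56 in accumbens arrays, against 7.58, 8.01 and 8.29 in cortex arrays, and did not pass (log2 difference -0.15, SE 0.07, adjusted p = 0.0605). With centred arrays its adjusted p was 0.00237 and with quantile normalization again 0.00277, and its second kept probe set, below log2 5 on average in both regions, was lower (-0.58, SE 0.08, adjusted p = 2.9e-07). The first probe set of Efna3 also passed without any 1 of BTBR T+ tf/J, C57BL/6J, C57BR/cdJ, C58/J, DBA/2J and PL/J (adjusted p 0.0180 to 0.0495).

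Among the Eph receptors, 3 were higher, 3 lower and 1 not called, or 3 and 4 with centred arrays. Ephb6, which lacks kinase activity, had 5.08, 5.46 and 6.11 in accumbens arrays, against 7.66, 8.24 and 8.53 in cortex arrays. The regions stood well apart, with the MA/MyJ array the lowest in cortex. Ephb6 was 6.79-fold lower (log2 difference -2.76, SE 0.05, adjusted p = 1.4e-28), and its promoter, shown above, held the motif most often of the 4. Ephb3, a B-type receptor kinase, had 2.65, 2.73 and 3.08 in accumbens arrays, against 4.48, 5.12 and 5.48 in cortex arrays. Every accumbens array was far below log2 5 and the cortex arrays lay around it, so that the bound is small. Ephb3 was at least 1.06-fold lower (log2 difference -2.32, SE 0.05, adjusted p = 4.3e-27). It passed the filter only through cortex, so a lower call was close to fixed and the p-value is no separate support. Epha10, a second receptor without kinase activity, was lower by 0.82 on the log2 scale (SE 0.09, adjusted p = 3.4e-09) in 25 of 27 strains.

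Ephb1, a receptor for B-type ephrins, had 5.66, 6.33 and 6.74 in accumbens arrays, against 5.13, 5.70 and 6.66 in cortex arrays. It was higher in 26 of 27 strains (log2 difference 0.64, SE 0.07, adjusted p = 2.7e-10), and did not pass with the oligodendrocyte covariate (difference 0.25, adjusted p = 0.0612). Epha4, which binds ephrins of both types, was higher by 0.43 (SE 0.05) in 25 of 27 strains (adjusted p = 1.1e-08), with the BALB/cByJ accumbens array the lowest. Epha5, a receptor for A-type ephrins, was higher by 0.39 (SE 0.11) in 18 of 27 (adjusted p = 0.00199). For both, probe sets disagreed. Of 5 kept probe sets of Epha4, 3 were higher, 1 lower (-0.22, SE 0.07, adjusted p = 0.00612) and 1 not called. Of 3 kept probe sets of Epha5, 2 were higher and 1 lower (-0.19, SE 0.08, adjusted p = 0.0202). Epha7, another receptor for A-type ephrins, had 5.24, 7.59 and 8.05 in accumbens arrays, against 7.19, 7.58 and 8.34 in cortex arrays, and did not pass (log2 difference -0.21, SE 0.13, adjusted p = 0.135). Its lowest accumbens array was BALB/cByJ, and with centred arrays Epha7 was lower (adjusted p = 0.0289). Of its 4 kept probe sets, 1 was lower (-0.67, SE 0.07, adjusted p = 9.3e-10).

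Semaphorins were lower in 5 of 11 tested members and higher in 4, or 7 and 3 with centred arrays. The secreted class had members on both sides. Sema3a, the ligand of neuropilin-1, had 3.18, 4.53 and 5.80 in accumbens arrays, against 5.30, 5.97 and 6.55 in cortex arrays. It was lower in all 27 strains and only the accumbens arrays of BALB/cByJ, NON/LtJ and PL/J reached the cortex range. Sema3a was at least 1.91-fold lower (log2 difference -1.39, SE 0.13, adjusted p = 4.4e-11). Its accumbens arrays alone would not have met the filter, so a lower call was favoured and the p-value is no separate support. Sema3c, also secreted, had 4.52, 5.23 and 7.46 in accumbens arrays, against 5.92, 6.65 and 7.03 in cortex arrays. Most accumbens arrays were below the cortex range, but 6 strains were higher in accumbens, and the arrays of BALB/cByJ and NON/LtJ lay above all cortex arrays. Sema3c was 2.17-fold lower (log2 difference -1.12, SE 0.15, adjusted p = 8.1e-08). Sema3e, the ligand of Plxnd1, had 4.91, 6.98 and 7.87 in accumbens arrays, against 5.40, 5.88 and 6.60 in cortex arrays, and was higher in 24 of 27 strains (log2 difference 0.86, SE 0.13, adjusted p = 8.3e-07). A second kept probe set of Sema3e, however, had a difference of 0.00 (adjusted p = 0.999). Sema3f, a ligand of neuropilin-2, had 4.84, 5.40 and 6.02 in accumbens arrays, against 4.74, 5.51 and 6.12 in cortex arrays, and did not pass (log2 difference -0.10, SE 0.06, adjusted p = 0.145), though it was lower with centred arrays (adjusted p = 0.00742) and without A/J (adjusted p = 0.0277). That probe set is of a type prone to cross-hybridisation. Dim probe sets of Sema3f that failed the filter went the other way. Their means were 3.42 in accumbens against 2.11 in cortex, and 2.88 against 2.24.

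Sema7a, which is held on a lipid anchor and signals through integrins and Plxnc1, had 4.89, 5.71 and 6.81 in accumbens arrays, against 7.96, 8.66 and 9.13 in cortex arrays. The highest accumbens array, FVB/NJ, was below the lowest cortex array, C57BL/6J. Sema7a was 7.57-fold lower in accumbens (log2 difference -2.92, SE 0.08, adjusted p = 1.4e-23). The other semaphorins span the membrane. Sema6d had 8.11, 8.53 and 9.79 in accumbens arrays, against 7.57, 8.01 and 8.49 in cortex arrays, and was higher in all 27 strains although the arrays of the regions overlapped (log2 difference 0.58, SE 0.06, adjusted p = 9.2e-10). Sema4f had 6.82, 7.29 and 7.71 in accumbens arrays, against 7.57, 7.83 and 8.19 in cortex arrays, and was lower in all 27 (log2 difference -0.56, SE 0.04, adjusted p = 3.6e-14), with its second kept probe set at -0.56 (SE 0.06, adjusted p = 6.0e-10). Sema5a was lower in 23 of 27 strains (log2 difference -0.67, SE 0.12, adjusted p = 4.7e-06). Sema6b was higher by 0.16 (SE 0.05), a call lost with centred arrays (adjusted p = 0.232).

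Sema4d, the ligand of Plxnb1, had 4.39, 4.93 and 5.68 in accumbens arrays, against 4.36, 4.65 and 5.27 in cortex arrays, and was higher by 0.24 (SE 0.06) with adjusted p = 0.00108. Both region means were below log2 5, so no fold is given. With the oligodendrocyte covariate the difference of Sema4d was -0.09 (adjusted p = 0.532). A further probe set of Sema4d, which failed the filter, went the other way, with means of 4.15 in accumbens and 4.68 in cortex. Sema4a had 6.44, 7.45 and 8.20 in accumbens arrays, against 7.04, 7.52 and 7.82 in cortex arrays, and did not pass (log2 difference -0.06, SE 0.05, adjusted p = 0.233). That probe set is of a type prone to cross-hybridisation. The second kept probe set of Sema4a was lower in accumbens, at -0.93 (SE 0.09, adjusted p = 4.2e-11), and the first was lower with centred arrays (adjusted p = 0.00368).

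Of the plexins, which receive the semaphorin signal, 5 were higher, 2 lower and 1 not called, or 4, 2 and 2 with centred arrays. Plxna1, a partner of neuropilins, had 5.30, 5.62 and 7.45 in accumbens arrays, against 6.39, 7.03 and 7.38 in cortex arrays. Of the 27 strains 2 were higher in accumbens, and their arrays, BALB/cByJ and CE/J, lay above all cortex arrays. Plxna1 was 2.29-fold lower (log2 difference -1.19, SE 0.10, adjusted p = 3.1e-12). Plxna4, of the same subfamily, was lower by 0.90 on the log2 scale (SE 0.07, adjusted p = 4.5e-13) in 26 of 27 strains. Plxnc1, the receptor of Sema7a, had 7.47, 8.28 and 8.82 in accumbens arrays, against 6.96, 7.46 and 7.71 in cortex arrays. It was higher in all 27 strains (log2 difference 0.80, SE 0.06, adjusted p = 8.1e-13), the opposite direction to its ligand, and its 3 kept probe sets were all higher. Plxna2 was higher by 0.24 (SE 0.05), with all 4 kept probe sets higher, and 0.14 with centred arrays.

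Plxnb1 was higher by 0.55 (SE 0.07) in 26 of 27 strains (adjusted p = 9.5e-09). Plxnb3, which binds Sema5a, was higher by 0.69 (SE 0.08) in 25 of 27 (adjusted p = 1.0e-09), but by 0.16 with the oligodendrocyte covariate (adjusted p = 0.252). Plxnb2 had 4.64, 5.09 and 5.70 in accumbens arrays, against 4.71, 4.99 and 5.47 in cortex arrays, and was higher by 0.15 (SE 0.06) with adjusted p = 0.0190. That call was lost with centred arrays (adjusted p = 0.442), with the oligodendrocyte covariate (adjusted p = 0.869) and without MA/MyJ, BALB/cByJ, CE/J, NON/LtJ and WSB/EiJ (adjusted p = 0.105), and the direction turned when arrays were quantile normalized again. Plxnd1, the receptor of Sema3e, had 4.07, 6.31 and 7.39 in accumbens arrays, against 5.19, 6.15 and 7.13 in cortex arrays, and did not pass (log2 difference 0.10, SE 0.15, adjusted p = 0.548). Its lowest accumbens array was BALB/cByJ and its highest cortex array MA/MyJ, and without the same 5 strains it was higher by 0.32 (adjusted p = 0.00536). The 5 strains include those of both arrays, so that fit gives no separate support for a call.

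The neuropilins, co-receptors of secreted semaphorins, went in opposite directions. Nrp1 had 6.52, 7.19 and 8.18 in accumbens arrays, against 6.85, 7.74 and 8.20 in cortex arrays, and was lower in 24 of 27 strains (log2 difference -0.48, SE 0.07, adjusted p = 2.5e-07). Of its dimmer kept probe sets, 1 was lower (-0.25, SE 0.11, adjusted p = 0.0418) and 1 not called (-0.10, SE 0.09, adjusted p = 0.298). Nrp2 had 4.39, 5.55 and 6.84 in accumbens arrays, against 4.14, 4.79 and 5.54 in cortex arrays, and was higher in 21 of 27 (log2 difference 0.68, SE 0.13, adjusted p = 1.7e-05, at least 1.41-fold). The cortex arrays of Nrp2 alone would not have met the filter, so a higher call was favoured and the p-value is no separate support. With the oligodendrocyte covariate the difference of Nrp2 was 1.08. Of the members outside guidance by role, Unc50, the homologue of a worm protein of receptor trafficking, was higher by 0.13 (SE 0.06) with adjusted p = 0.0286. The Unc50 call was lost with centred arrays (adjusted p = 0.579), with the oligodendrocyte covariate (adjusted p = 0.175), and without any 1 of BALB/cByJ, C58/J and SWR/J (adjusted p of 0.0544, 0.0540 and 0.0564).

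Single arrays carried a large part of the extremes, for all features as well as for the members. In accumbens, the array of BALB/cByJ was the lowest or highest for 22 of the 44 members (50%), near the 42.5% of all features. The MA/MyJ cortex array was so for 15 (34.1%), against 20.9% of all features. The accumbens arrays of BALB/cByJ, NON/LtJ and CE/J, high together for Unc5d, Slit1, Sema3c, Plxna1 and Efna5, were the lowest by spiny minus cortical level, at 2.20, 3.76 and 3.83. BALB/cByJ and MA/MyJ were the arrays with the lowest spiny minus cortical level in accumbens and the highest in cortex, and their part in the members' spread was not tested beyond the fits without them. Without C57BR/cdJ, MA/MyJ and BALB/cByJ, the regions did not overlap for 4 members higher (10.2% of all features) and 6 lower (7.03%), Dcc and Efna5 being added. Without the 5 strains named above the counts were 7 (12.5% of all features) and 7 (8.70%).

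**Figure D3:**
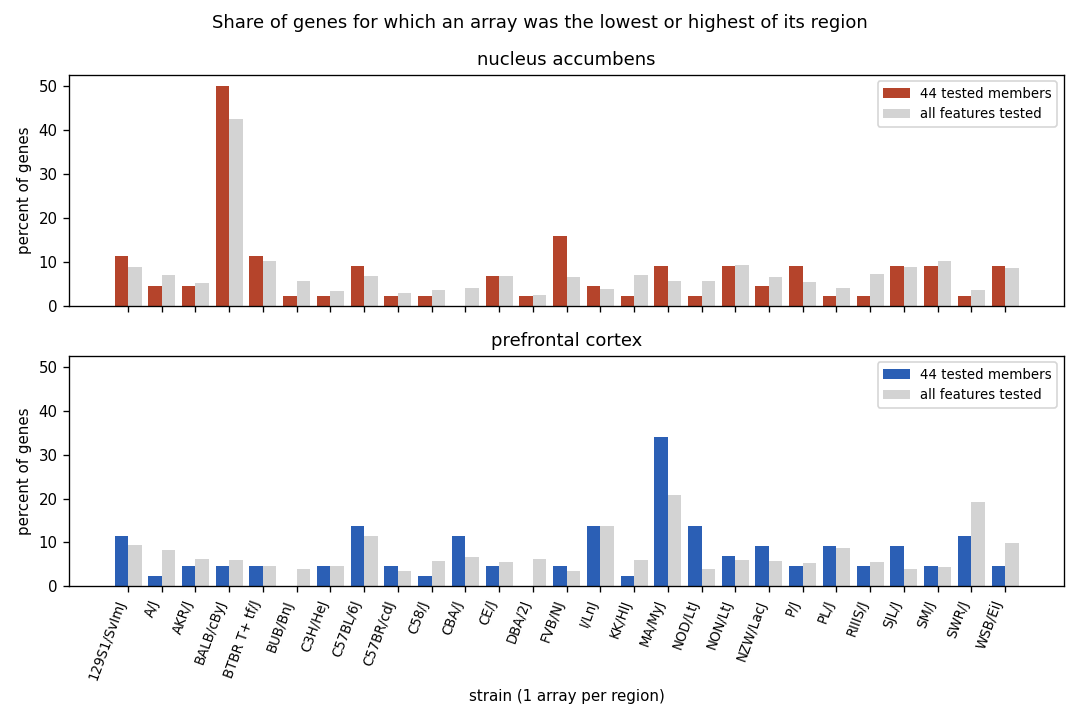
Percent of genes (vertical axis) for which each strain's array was the lowest or the highest of its region, for the 44 tested members (coloured) and all features tested (grey), accumbens above and cortex below. The BALB/cByJ array stands out in accumbens (22 of 44 members and 42.5% of all features) and the MA/MyJ array in cortex (34.1% of members and 20.9% of all features).

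The second comparison asked whether strains differed over both regions. By the moderated F test 1 of 44 members was strain-dependent (20.4% of all features were), and 9 of 44 had an unadjusted p under 0.05 (34.3% of all features). That member was Nrp1. Its strain means over both regions had a lowest of 6.79 in P/J, a median of 7.49 and a highest of 8.04 in CE/J, with a residual SD of 0.26 per array (adjusted p = 0.00490). The P/J arrays were low in both regions, at 6.73 in accumbens and 6.85 in cortex, and the CE/J arrays high in both, at 7.92 in accumbens and 8.16 in cortex. In other strains the regions parted: BTBR T+ tf/J had 6.52 in accumbens and 7.56 in cortex, and BALB/cByJ 8.12 in accumbens and 7.74 in cortex. The call held without each strain in turn (adjusted p 0.0016 to 0.0141). The other 2 kept probe sets of Nrp1, both dimmer, did not pass (adjusted p of 0.122 and 0.143).

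**Figure D4:**
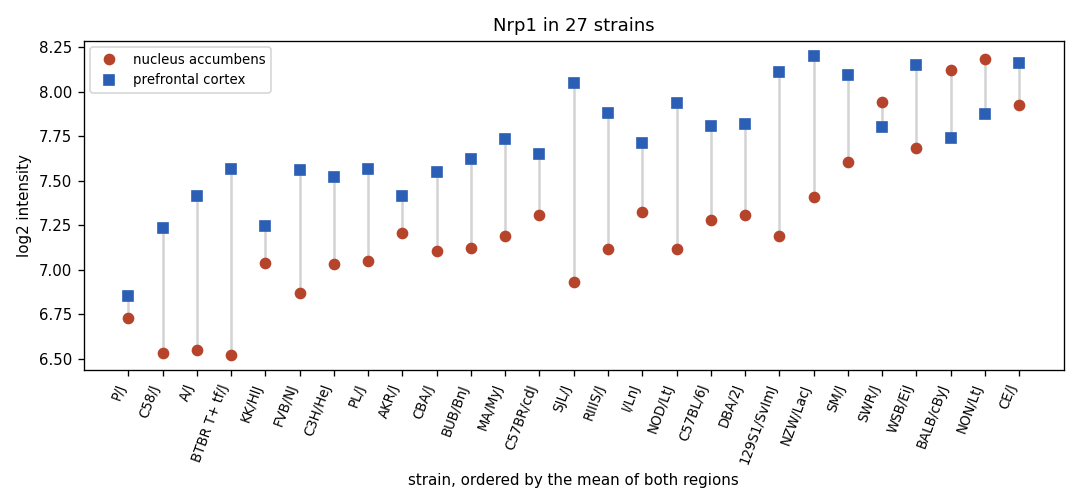
Log2 intensity of Nrp1 (vertical axis) in 27 strains ordered by their mean over both regions, with circles for nucleus accumbens and squares for prefrontal cortex, 1 array each. P/J is lowest and CE/J highest by that mean, and accumbens lies above cortex in 3 strains.

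The next members fell just outside the threshold: Sema4a (adjusted p = 0.0553), Sema5a (adjusted p = 0.0567) and Sema6d (adjusted p = 0.0595). Their strain means ran from 6.74 in FVB/NJ to 7.95 in CE/J for Sema4a, from 5.11 in WSB/EiJ to 6.91 in NON/LtJ for Sema5a, and from 7.99 in KK/HlJ to 9.08 in BALB/cByJ for Sema6d. Leaving out single strains brought some members past the threshold. Sema5a passed without BUB/BnJ (0.0458), C57BL/6J (0.0165), C57BR/cdJ (0.0428), CE/J (0.0456) or P/J (0.0449), and Sema4a without 129S1/SvImJ (0.0437), RIIIS/J (0.0455) or SM/J (0.0429), each value an adjusted p. Sema6d passed without C3H/HeJ (0.0425) or NON/LtJ (0.0415), Plxnb1 without C57BR/cdJ (0.0316) or C58/J (0.0491), Plxnd1 without BALB/cByJ (0.0073), Sema4f without FVB/NJ (0.0401) and Ntn4 without WSB/EiJ (0.0485). The members' median SD of strain means was 0.25, against 0.18 over all features, and their median residual SD was 0.27, against 0.20.

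The last comparison set BTBR T+ tf/J and I/LnJ, strains known to lack the corpus callosum, against the other 25 strains. With limma, 0 of 44 members passed (0.0374% of all features did), and 0 of 44 had an unadjusted p under 0.05 (4.89% of all features). With trend and robust variance the count at an unadjusted p under 0.05 was also 0, and without BALB/cByJ and 129S1/SvImJ, which lack the callosum in some animals, it was 2. Ephb6 came nearest, at a difference of 0.20 (SE 0.10, unadjusted p = 0.0516). The SE of these differences ran from 0.07 for Sema6b to 0.36 for Plxnd1, so that a p above the threshold does not show that the strains were alike.

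The 27 members that failed the filter were dim in both regions, with region means from 1.49 to 4.86, and have no test. The highest array of any of them was 6.48, for Sema4g in CE/J accumbens. Some lay on 1 side in every strain: Epha8, an Eph receptor, had means of 4.37 ± 0.37 in accumbens and 3.01 ± 0.06 in cortex, and Epha6, also an Eph receptor, 3.90 ± 0.35 in accumbens and 2.61 ± 0.18 in cortex (± SD), both higher in accumbens in 27 of 27 strains. Unc5b, an Unc5 receptor, had means of 3.80 ± 0.18 in accumbens and 2.76 ± 0.07 in cortex and was higher in 27 of 27, while Ntn5, a netrin, had 2.51 ± 0.02 in accumbens and 3.88 ± 0.27 in cortex and was lower in 27 of 27. Efnb1, the remaining B-type ephrin, had means of 4.51 ± 0.11 in accumbens and 4.86 ± 0.11 in cortex and was lower in 27 of 27. Ntn3 (means of 1.57 in accumbens and 1.49 in cortex) and Unc5cl (1.74 and 1.68) were higher in 27 of 27, by under 0.1. At these levels no fold is given, and an offset between regions that appear normalized apart cannot be told from a difference in expression. How many of all dim features lay on 1 side in every strain was not counted. The rest, with their differences, were Efna1 (-0.06), Efna2 (0.37), Efna4 (0.01), Epha1 (-0.02), Epha2 (-0.01), Epha3 (-0.83), Ephb4 (-0.01), Ntn3 (0.08), Plxna3 (-0.55), Plxna4os1 (-0.08), Robo4 (-0.58), Sema3b (-0.09), Sema3d (0.05), Sema3g (-0.15), Sema4b (-0.28), Sema4c (-0.33), Sema4g (0.15), Sema5b (0.76), Sema6a (0.56), Sema6c (-0.03), Slit3 (0.18) and Unc5cl (0.06).

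Over all members, 13 had at least 2 kept probe sets. For 6 of these (Dcc, Efnb2, Plxna2, Plxnc1, Sema4f and Unc50) every kept probe set was called in 1 direction. For Epha4 and Epha5 called probe sets pointed both ways, and for the other 5 at least 1 probe set was not called. Counted over 67 kept probe sets, 32 were higher in accumbens (51.8% of all kept probe sets) and 23 lower (31.5%). With no filter on dim probe sets, 30 of the 71 members were higher (36.4% of all features) and 28 lower (43.9%).

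Genes that act beside the members were taken from 5 lists of 124 genes, of which 96 were tested. Of these, 34 were higher in accumbens (51.0% of all features were), 44 lower (32.9% of all features) and 18 not called. With centred arrays 27 were higher (42.7% of all features) and 51 lower (39.8%). Receptor partners had 5 higher and 9 lower of 17. Boc, a co-receptor for Sonic hedgehog, was at least 1.26-fold lower (log2 difference -2.69, SE 0.06, adjusted p = 3.9e-26), and Dscam, an adhesion molecule that also binds netrin, at least 2.29-fold lower (log2 difference -1.86, SE 0.13, adjusted p = 3.6e-14). The accumbens means of Boc and Dscam lay below log2 5. The filter thus favoured a lower call for both, and their p-values are no separate support. Neo1, a netrin receptor related to Dcc, was higher by 0.33 (SE 0.04), and L1cam, an axonal adhesion molecule, by 0.46 (SE 0.05).

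Other ligands and matrix cues had 3 higher and 10 lower of 18, or 2 and 12 with centred arrays. Wnt4, a secreted Wnt, was at least 1.66-fold lower (log2 difference -3.53, SE 0.06, adjusted p = 1.5e-28), with every accumbens array below log2 5. Wnt4 thus passed the filter only through cortex, so a lower call was close to fixed. Lingo1, a partner of the Nogo receptor, was 4.31-fold lower (log2 difference -2.11, SE 0.06, adjusted p = 8.6e-24). Flrt3, a ligand of Unc5 receptors, was 2.13-fold higher (log2 difference 1.09, SE 0.10, adjusted p = 1.2e-11).

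Growth cone kinases and adaptors had 10 higher and 5 lower of 17, or 6 and 7 with centred arrays. Yes1, a Src family kinase, was at least 1.56-fold higher (log2 difference 1.33, SE 0.04, adjusted p = 3.5e-23), and Nck2, an adaptor, was 2.00-fold lower (log2 difference -1.002, SE 0.04, adjusted p = 4.3e-20). The cortex mean of Yes1 lay below log2 5, so the filter favoured its higher call and the p-value is no separate support. Cytoskeleton effectors had 5 higher and 8 lower of 18. Marcks, an actin-binding substrate of protein kinase C, was 2.25-fold higher (log2 difference 1.17, SE 0.04, adjusted p = 7.7e-22), and Gap43, a growth cone protein, 2.04-fold higher (log2 difference 1.03, SE 0.05, adjusted p = 3.4e-18). Stmn2, a microtubule regulator of growth cones, was 3.03-fold lower (log2 difference -1.60, SE 0.15, adjusted p = 4.0e-11). Strain dependence was called for 13 of the 96 (20.4% of all features), Neo1 (adjusted p = 1.1e-05) among them.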

How the data were processed

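RNA levels were read on 1-colour oligonucleotide arrays, 27 of nucleus accumbens and 29 of prefrontal cortex, each with RNA of 1 strain pooled from 3 males. The values deposited by the authors are linear intensities, 1 per probe set. The submitters' processing notes name GCRMA, a background correction, quantile normalization and probe summary, without a version that the sources used here would give. Scanner files were left aside. The regions appear from the values to have been normalized apart, so a normalization run and a region cannot be told apart.

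Of 45015 probe sets, 64 were controls and dropped. By the platform annotation, 34880 probe sets carried 1 gene symbol, 923 several and 9148 none. The log2 of each intensity was taken without a pseudocount. Probe sets above log2 5 on at least 13 of 54 paired arrays were kept, and each gene was represented by its brightest kept one, which left 10684 features (8811 named genes). limma 3.58.1 in R 4.3.3 fitted region and strain, with strain as a block, and its moderated t and F tests were adjusted by Benjamini-Hochberg at 0.05. The acallosal comparison was fitted on each strain's mean over regions. The number of arrays limits the precision.

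The pairing was checked: both regions of a strain come from adjoining slices, per the labels' design text, and deviations of same-strain arrays correlated with a lowest r of 0.146 and a median of 0.425, above 0.1 in 27 of 27 pairs. Members, related lists and marker lists were chosen with earlier results of these data known. Of the 5 related lists, 1 enters the totals and is not reported here. Named genes were every member, and in each other related list genes among those with the largest differences past the threshold in each direction. The tests were run on simulated data first. Promoters came from RefSeq (GRCm38.p6), and counts, motifs and figures from Python 3.11.15 with pandas 2.3.3 and matplotlib 3.10.9. Alternatives were other filters, quantile normalization again, centring, a pseudocount of 16, a floor at log2 5, trend and robust variance, the oligodendrocyte covariate, no replicate block, a threshold of 0.01, other probe set choices and leaving out strains.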

Additional observations from a re-analysis of the deposited data

How the results depend on the processing

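The members' counts of 21 higher and 16 lower in accumbens moved by over 1.5 times under 3 settings. With no filter, 28 of 71 were lower (43.9% of all features) and 30 higher (36.4%). With the filter at log2 7, 12 of 22 were higher and 7 lower. No share over all features is given there, so these counts cannot be set against it. When every kept probe set was tested, 32 of 67 were higher (51.8% of all kept probe sets) and 23 lower (31.5%). All 3 settings change how many probe sets are tested. In the related lists every kept probe set gave 69 higher (51.8% of all kept probe sets) and 71 lower (31.5%), again with more probe sets tested. The oligodendrocyte covariate gave 22 higher there, with no share over all features given. The count of strain-dependent members was 3 with trend and robust variance (20.9% of all features) and 2 with every kept probe set (20.1%). It was 3 without MA/MyJ, BALB/cByJ, CE/J, NON/LtJ and WSB/EiJ (20.5%) and 3 without C57BR/cdJ and C58/J (20.0%). It was also 3 without C57BR/cdJ, MA/MyJ and BALB/cByJ (21.2%), a setting added after seeing the data. Without each strain in turn it was 1 to 3, with 20 to 22 members higher and 16 to 17 lower, 34 to 35 and 44 to 47 in the related lists, and 0 acallosal calls, a comparison not run without BTBR T+ tf/J or I/LnJ. Directions turned for Plxnb2 (-0.000923) and Unc5c (-0.0066) with quantile normalization again, and for Sema4d (-0.0903) with the oligodendrocyte covariate. The cause was not tested. With quantile normalization again Efna3, Sema3f, Sema4a and Epha7 were called lower (adjusted p 0.00224 to 0.0270). In that setting 3 members whose direction held lost their call. With no replicate block, where arrays were not paired by strain, 22 members were higher and 16 lower, with no share over all features given. Robo2 passed there (adjusted p = 0.0457). The pairing changed no other member's region call. Raising values under log2 5 to it made the differences of Ntn1 2.03, Robo3 -0.49, Sema3a -0.85 and Ephb3 -0.15, all still called, and ended the calls of Slit1 and Sema4d. Adding 16 to the intensities made those of Ephb3 -1.14, Robo3 -1.33, Slit1 -0.34 and Sema4d 0.16. Ntn4 passed the region test without any 1 of 129S1/SvImJ, BTBR T+ tf/J, BUB/BnJ, C57BR/cdJ, FVB/NJ, SJL/J and SM/J (adjusted p 0.0329 to 0.04999). With the oligodendrocyte covariate the differences of Epha5 (0.67), Sema6d (0.36), Sema6b (0.25) and Slit2 (-0.74) also moved by over 1.5 times. Of the limits, dim probe sets cannot show folds, 1 array per strain and region leaves no replicate within a strain, and both regions are tissue mixtures.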
